A study of Mus musculus with 34 samples.

Results

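The genes described here are the replication-dependent histone genes of the mouse, which encode the bulk of the linker histone H1 and of the core histones H2A, H2B, H3 and H4. They were taken by symbol (Hist1h, Hist2h, Hist3h or Hist4h) from the 32285 genes counted in 10 sorted-cell single-cell RNA libraries. Of 67 genes with such a symbol, 63 had 20 or more unique molecular identifiers (UMIs, each standing for 1 captured RNA molecule) over those libraries and are the members. Hist1h1t and Hist1h2ah were just inside with 47 and 53 UMIs, Hist2h2aa2 was outside with 13, and Hist1h2aa, Hist1h2ba and Hist1h2bq had 0. By earlier knowledge of their transcripts, 5 members (Hist1h1c, Hist1h2bc, Hist2h2be, Hist3h2a and Hist3h2ba) form a polyadenylated list, Hist1h1t is testis-type, and the other 57 form the S-phase list. The lists were set with earlier results of these data known.

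The libraries came from a mammary tumour of MMTV-Wnt1 mice, in which the mouse mammary tumour virus promoter drives the Wnt1 oncogene, transplanted into C57BL6j mice. Immune cells positive for CD45 were taken by magnetic extraction 48 h after the last of 5 doses of 4 mg/kg doxorubicin (2 libraries) or from untreated tumours (2 libraries). T cells positive for CD4 or CD8 gave 1 library per group: doxorubicin and then 200 ug anti-PD1 with 200 ug control IgG; doxorubicin and then 200 ug anti-CTLA4 with 200 ug IgG; doxorubicin and then both antibodies at 200 ug each; doxorubicin and then 400 ug IgG; doxorubicin alone, harvested at 48 h; and no treatment. Antibodies were given 3 times, every 72 h, starting 48 h after doxorubicin, and those tumours were harvested 24 h after the last dose. A further table pooled 4016 cells of whole tumours and does not say which tumour each cell came from. The labels do not say whether libraries of 1 group came from separate animals, so p-values measure only the spread between these libraries.

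Doxorubicin is a chemotherapy drug that poisons topoisomerase II and damages DNA, and the antibodies block PD1 or CTLA4, receptors that hold T cells back. Cells were placed in a gate by their markers: neutrophil-, macrophage- and T-gated cells held 6 or more of 10 markers of their type and at most 4 of any other gate, and tumour-gated cells 6 or more of 11 epithelial markers. Within a gate, dividing cells had 10 or more UMIs per 10000 of cell-cycle genes and resting cells under 2. Dividing cells were S-leaning or G2/M-leaning by which of the lists of 26 S and 28 G2/M genes held the larger share, and no histone gene was used in any gate. The marker summed highest was the own one in every gate of the 4 immune libraries except the 41 tumour-gated cells of doxorubicin library 1, where neutrophil markers summed to 198 UMIs per 10000 and tumour markers to 117. Libraries held 16908180 to 93748407 UMIs in 1541 to 8529 barcodes. A level is given in CPM, a gene's UMIs for every 1000000 UMIs of the cells summed.

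Replication-dependent histone mRNAs are made as DNA is copied, from genes that lie in clusters and lack introns. Their pre-mRNA ends in a short stem-loop that the stem-loop binding protein Slbp holds, and cleavage just after it leaves an mRNA with no poly(A) tail. A few of the genes also use a downstream poly(A) signal, and such polyadenylated transcripts are known from resting and differentiated cells. The libraries were primed on poly(A) at the 3′ end of RNA, so the values count the histone transcripts that this priming captured and not all histone mRNA. In GRCm38, 51 members lie on chromosome 13 between positions 21715763 and 23764406, 9 on chromosome 3 (96219865 to 96270132), 2 on chromosome 11 (58948920 to 58956830) and 1 on chromosome 6 (136801553 to 136804415).

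The stem-loop is the sequence that sets these mRNAs apart, and it was found in 62 of the 63 members, 21 to 58 bases after the stop codon. Hist2h2be had none within 250 bases. The commonest form, shared by 38 members, is printed first, followed by those of members that carry the results and, in Hist1h4j, by the form with 4 changes, with 5 flanking bases on each side in lower case and the 16-base stem-loop in capitals, on the gene's strand in GRCm38.
Hist1h1b, chromosome 13: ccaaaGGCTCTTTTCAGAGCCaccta
Hist1h2ap, chromosome 13: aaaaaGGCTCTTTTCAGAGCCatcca
Hist1h1c, chromosome 13: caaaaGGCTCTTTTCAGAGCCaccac
Hist1h2bc, chromosome 13: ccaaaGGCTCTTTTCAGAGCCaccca
Hist3h2a, chromosome 11: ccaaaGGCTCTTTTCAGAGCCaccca
Hist1h4d, chromosome 13: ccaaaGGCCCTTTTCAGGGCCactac
Hist1h4i, chromosome 13: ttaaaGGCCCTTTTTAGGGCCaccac
Hist1h4j, chromosome 13: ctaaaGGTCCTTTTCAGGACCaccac
They stand at chr13:21779837-21779852 (minus strand), chr13:21833029-21833044 (minus), chr13:23739512-23739527 (plus), chr13:23684647-23684662 (plus), chr11:58955172-58955187 (plus), chr13:23581950-23581965 (plus), chr13:22040966-22040981 (minus) and chr13:21735437-21735452 (plus).

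Positions in the stem-loop count from 1 at its 5′ end, and a change is given from the commonest form. All 13 H4 members carried T4C and A13G, which change both bases of 1 pair of the stem, and 8 of them had no other change. Of the other H4 members, 2 also had C10T, 1 also had T8C, and 2 had C3T, T4C, A13G and G14A. C10A, in the loop, was found in 8 members of the H1, H2A, H2B and H3 classes. The polyadenylated members did not differ in the stem-loop itself: the 4 that have one carry the commonest form.

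The lists did differ in where the annotated transcripts end, which is a description and no test of the split. The polyadenylated members were chosen for known poly(A) transcripts, which use a signal past the stem-loop. In the GENCODE M21 annotation, a transcript reached over 100 bases past the stem-loop in all 4 polyadenylated members that have one, with a median of 1241.5 bases and 8246 bases for Hist1h2bc. This was so for 21 of the 57 S-phase members, and the annotated end of 15 S-phase members fell before the end of the stem-loop. In 62 members compared over the 90 bases before the stem-loop, 6 matched another member exactly (Hist1h2ap and Hist1h2ao, Hist1h4m and Hist1h4n, Hist2h3c1 and Hist2h3c2) and 16 had 3 or fewer mismatches, among them Hist1h3e, 1 mismatch from Hist1h3f, and Hist1h2be, 3 from Hist1h2bg. Reads of such pairs may not be assignable to 1 gene, so their single values are uncertain.

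Many of the genes rise together below, and their promoters share short motifs. The letters CCAAT were searched on both strands, as were the TATA box written TATAAA and the octamer ATTTGCAT, in the 250 bases before to 50 after the start, in RefSeq promoters of GRCm38.p6 that matched 58 of the 63 members. CCAAT was in 49 of the 58 promoters (84.48%), against 37.41% of 32851 promoters of all genes. It was in 3 of 12 H4 promoters and in every matched promoter of the other classes. TATAAA was in 33 (56.9%, against 13.62%), and the octamer, known from H2B promoters, in 11 (18.97%, against 1.735%), of which 5 of 14 were H2B and 6 of 16 H2A. The 250 bases before the start of a linker, an H2A and an H4 gene are printed as examples, with motif matches in capitals.
Hist1h1b, chr13:21780626-21780875, minus strand: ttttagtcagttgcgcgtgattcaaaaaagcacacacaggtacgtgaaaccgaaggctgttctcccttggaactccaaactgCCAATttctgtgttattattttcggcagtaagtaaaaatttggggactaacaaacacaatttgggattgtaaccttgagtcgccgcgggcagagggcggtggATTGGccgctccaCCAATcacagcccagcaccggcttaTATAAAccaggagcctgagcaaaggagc
Hist1h2ab, chr13:23750838-23751087, plus strand: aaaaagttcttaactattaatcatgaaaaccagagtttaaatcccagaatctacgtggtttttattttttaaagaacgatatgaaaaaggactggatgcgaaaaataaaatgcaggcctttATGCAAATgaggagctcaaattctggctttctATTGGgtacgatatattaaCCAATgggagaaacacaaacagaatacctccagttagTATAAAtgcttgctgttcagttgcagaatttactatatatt
Hist1h4i, chr13:22041363-22041612, minus strand: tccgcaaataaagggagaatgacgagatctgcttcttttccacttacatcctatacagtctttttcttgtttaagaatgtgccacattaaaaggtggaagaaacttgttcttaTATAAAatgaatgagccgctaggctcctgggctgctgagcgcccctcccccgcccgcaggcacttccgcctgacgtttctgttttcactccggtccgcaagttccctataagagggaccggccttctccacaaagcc
A match is a description of the letters and not of binding, and it was counted wherever it lay in the window. In Hist1h4i the TATAAA lies farther from the start than in Hist1h1b and Hist1h2ab.

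In T-gated cells nearly all S-phase histone mRNAs were higher in dividing than in resting cells, while of the 5 polyadenylated members 2 rose, 1 fell and 2 did not pass the test. The S-phase list summed to 1203 to 3225 CPM with a median of 2122 in dividing cells of the 6 T cell libraries, against 108 to 232 with a median of 150.0 in resting cells. Every library's dividing value was above every resting value. The polyadenylated list was at 95.8 to 199.8 CPM with a median of 151 in dividing cells, against 51.5 to 109 with a median of 79.7 in resting cells. It made up 5.83 to 7.38% of both lists' UMIs in dividing cells, against 29.7 to 38.0% in resting cells. Dividing cells held more UMIs, with medians per cell of 8999 to 16779 against 5341 to 8815.5 in resting cells.

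With edgeR's quasi-likelihood test in these 6 libraries, with the library as a block, 51 of the 57 members tested rose in dividing cells and 1 fell at an adjusted p under 0.05, with a median log2 change of 2.90. Of all 11513 genes tested, 25% rose and 22.6% fell, with a median of -0.03. In the S-phase list 49 of 52 rose: all 4 H1, 13 H2A, 13 H2B and 10 H3 members tested, and 9 of 12 H4 members. The 3 that did not pass were Hist2h4 (log2 change 0.61, adjusted p = 0.0552), Hist4h4 (-0.54, adjusted p = 0.0586) and Hist1h4n (0.67, adjusted p = 0.198), all H4 genes. Too few UMIs left Hist1h1t, Hist1h2ah, Hist1h4m, Hist2h2ab, Hist2h3c1 and Hist2h3c2 untested.

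The linker histone Hist1h1b gave the largest share of the S-phase list in dividing T-gated cells, 21.6% ± 3.74 (SD, n = 6). Hist1h1b had 280.1 to 676 CPM with a median of 457 in dividing cells, against 3.36 to 9.32 with a median of 6.18 in resting cells, a log2 change of 6.13 ± 0.08 (SE), adjusted p = 1.81e-33. Hist1h1e, another linker histone, gave 8.77% of the list. Together with Hist1h2ap (14.6%), Hist1h2ae (9.85%) and Hist1h4d (7.58%), these 5 of 57 members held 62.4% of it.

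The core histones followed. Hist1h2ap, an H2A gene identical to Hist1h2ao over the bases compared above, had 108 to 639 CPM with a median of 308 in dividing cells, against 1.997 to 20.5 with a median of 10.8 in resting cells, a log2 change of 4.76 ± 0.09 (SE), adjusted p = 1.03e-29. Hist1h2ab, also an H2A gene, had 33.6 to 129.5 CPM with a median of 71.8 in dividing cells, against 0.326 to 2.03 with a median of 0.989 in resting cells, a log2 change of 6.12 ± 0.16 (SE), adjusted p = 3.74e-26. Hist1h3c, an H3 gene, had 46.8 to 101 CPM with a median of 65.1 in dividing cells, against 0 to 1.62 with a median of 0.35 in resting cells, a log2 change of 6.78 ± 0.21 (SE), adjusted p = 1.43e-22. Of these, Hist1h3c was at 0 UMIs in the resting cells of 2 libraries, so its fold is the least precise. For Hist1h2bj, an H2B gene, the log2 change was 5.02 ± 0.16 (SE), adjusted p = 5.65e-23. It was 3.16 for Hist2h2ac, 4.09 for Hist1h2an (both H2A) and 2.92 for Hist1h3e (H3), which complete the 8 members with the smallest p. Over classes, the S-phase list's UMIs were 32.9% ± 5.37 H1, 35.9% ± 5.99 H2A, 9.01% ± 1.21 H2B, 9.65% ± 0.69 H3 and 12.5% ± 1.17 H4 (SD, n = 6).

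**Figure D1:**
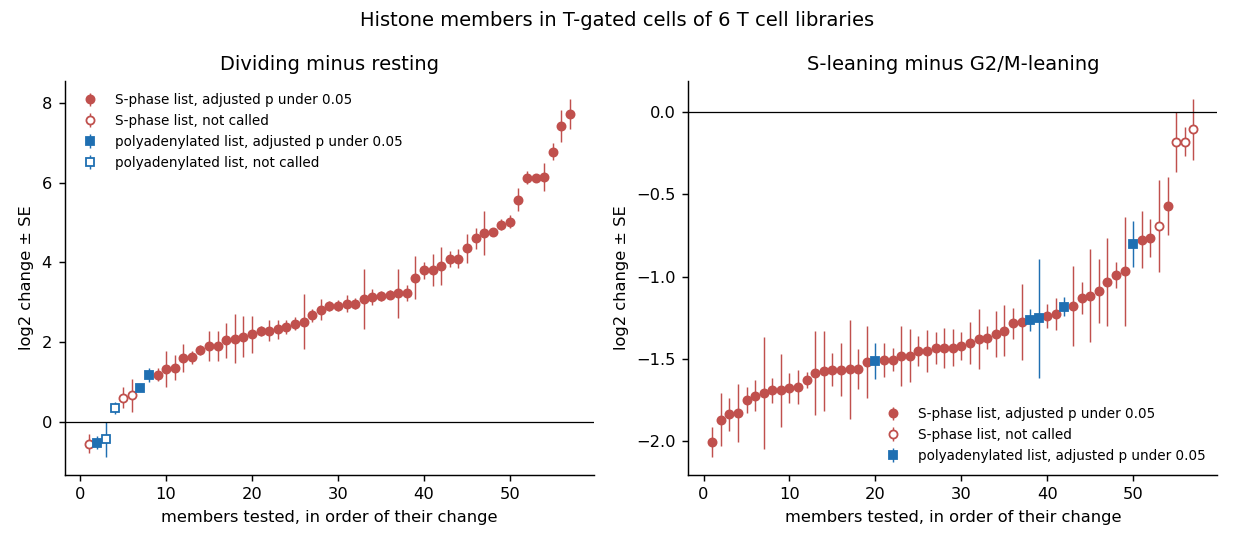
Log2 changes (y axis, with SE) of the histone members tested in T-gated cells, in order of their change on the x axis, for dividing minus resting cells and for S-leaning minus G2/M-leaning cells. In the first panel 51 of 57 points are called above 0 and 1 below, with the polyadenylated members at the low end, and in the second 53 of 57 are called below 0.

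The polyadenylated members split. Hist1h1c, a linker histone, rose with 56.8 to 120.1 CPM with a median of 85.2 in dividing cells, against 25.96 to 58.5 with a median of 44.7 in resting cells, a log2 change of 0.86 ± 0.09 (SE), adjusted p = 7.75e-08. Hist1h2bc, an H2B gene, also rose, with a log2 change of 1.18 ± 0.18 (SE), adjusted p = 0.00034. Hist3h2a, an H2A gene, fell to 5.35 to 9.97 CPM with a median of 7.59 in dividing cells, against 8.22 to 12.3 with a median of 9.40 in resting cells, a log2 change of -0.51 ± 0.15 (SE), adjusted p = 0.00631. It was the one member of the 57 tested that fell. Hist3h2ba (log2 change 0.35, adjusted p = 0.0537) and Hist2h2be (-0.44, adjusted p = 0.435) did not pass the test, the first on either side of the threshold when single libraries were left out (adjusted p of 0.0326 and 0.0395 without the anti-CTLA4 and without the anti-PD1 library).

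Within the S-phase list, the annotated transcript end went with the size of the rise. Of the members with an end over 100 bases past the stem-loop, 17 of 19 rose with a median log2 change of 2.14. Of those with no such end, 32 of 33 rose with a median of 3.81. Members with the longer ends held 34.4 to 39.4% of the S-phase list in dividing cells, against 61.4 to 73.3% in resting cells, with no overlap between the libraries' values. Ends this long are annotation and were not measured in these cells.

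Other genes of the histone supply were followed as lists, to be read against the 25% of all genes that rose and the 22.6% that fell. Of 14 factors of histone mRNA transcription, processing and decay tested, 12 rose in dividing T-gated cells and none fell: Slbp by 0.69, Casp8ap2, which recruits the cleavage machinery, by 0.79, the cleavage subunit Cpsf2 by 0.95 and Srrt, which links it to the cap, by 0.79 log2 units. Of 17 histone chaperones and nuclear import factors, 11 rose and 3 fell, led by the H3 and H4 chaperone Asf1b (4.29) and the acetyltransferase Hat1 (1.47). Chaf1b (3.96), a subunit of the factor that loads histones at the replication fork, is among the S genes that chose dividing cells, so its change is a description. Of 10 replication-independent variants, 7 rose and 2 fell, and the variants H2afz (1.48), H2afx (1.89), H2afv (1.26) and the centromeric H3 variant Cenpa (1.72) rose less than the median S-phase member.

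Among dividing T-gated cells, histone mRNAs were higher in the G2/M-leaning than in the S-leaning cells. Of 57 members tested, 0 rose and 53 fell in S-leaning cells, with a median log2 change of -1.43, while 12.6% of 11360 genes rose and 13.9% fell. All 57 had a log2 change below 0. The S-phase list was at 1768, 1772, 1788, 916, 679 and 819 CPM in S-leaning cells of the anti-PD1, anti-CTLA4, both-antibody, IgG, 48 h and untreated libraries. In the G2/M-leaning cells of these libraries it was at 3357, 5259.5, 4455, 2888, 2009.9 and 2583. Every library had the lower value in its S-leaning cells. The S list that made a cell S-leaning holds genes known to rise before DNA copying begins, so these gates do not mark cells by DNA content.

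All 5 polyadenylated members fell with the rest: Hist1h1c by 1.18, Hist1h2bc by 1.26, Hist2h2be by 1.25, Hist3h2a by 0.80 and Hist3h2ba by 1.51 log2 units. Hist3h2a, lower in dividing than in resting cells, had 2.75 to 9.44 CPM in S-leaning cells, against 7.00 to 12.4 in G2/M-leaning cells. Hist1h4d, an H4 gene, had 31.4 to 151 CPM with a median of 92.4 in S-leaning cells, against 104.95 to 477 with a median of 257 in G2/M-leaning cells, a log2 change of -1.63 ± 0.05 (SE), adjusted p = 2.42e-18. The smallest p belonged to Hist2h2bb (-1.69), Hist1h4h (-1.75) and Hist1h2af (-2.002), with adjusted p of 2.95e-19, 4.36e-19 and 6.16e-19. Hist1h3a, Hist1h4n, Hist2h4 and Hist4h4 did not pass. Of the histone mRNA factors 1 of 14 rose and 2 fell, of the chaperones 5 of 17 rose and 3 fell, and of the variants 8 of 10 fell, against the same 12.6% and 13.9% of all genes.

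In other gates these states could be set side by side in few libraries. In macrophage-gated cells of the untreated immune libraries the S-phase list was at 153 and 250.2 CPM in S-leaning cells, against 1129 and 701 in G2/M-leaning cells. In tumour-gated cells of untreated library 1 it was at 981 in S-leaning and 976 in G2/M-leaning cells. In that library the polyadenylated members were lower in S-leaning cells, as in T-gated cells: Hist1h2bc had 72.3 CPM in S-leaning cells, against 127 in G2/M-leaning cells, and Hist1h1c had 39.9, against 57.6. The S-phase list was mixed. Hist1h4d had 73.9 CPM in S-leaning cells, against 104.7 in G2/M-leaning cells, and Hist1h1e had 72.7, against 101. Other members went the opposite way: Hist1h1b had 190, against 147, Hist1h2ap 168, against 129, and Hist1h2ae 97.0, against 75.7. The difference between gates was not tested.

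In macrophage-gated cells, too, S-phase members were higher in dividing cells. In the 3 libraries with 20 or more cells of each kind (doxorubicin 2, untreated 1 and untreated 2), 13 of 17 members tested rose in dividing cells and 1 fell, with a median log2 change of 3.07, against 7.04% of 9315 genes that rose and 5.78% that fell. Hist1h2ae, an H2A gene, had 65.9, 68.3 and 57.9 CPM in dividing cells of these libraries, against 2.17, 2.64 and 0.845 in resting cells, a log2 change of 4.82 ± 0.34 (SE), adjusted p = 5.57e-11. Hist1h1b had 18.3, 86.6 and 67.2 in dividing cells, against 0.541, 1.32 and 0 in resting cells, a log2 change of 6.06 ± 0.42 (SE), adjusted p = 5.82e-11. The resting sums held 4, 4 and 1 UMIs of Hist1h2ae and 1, 2 and 0 of Hist1h1b, so these folds are imprecise. The groups did not overlap for either gene. Hist1h2ap (5.87), Hist1h1d (4.14), Hist1h1e (3.07) and Hist1h4d (2.17) also rose, the last losing its call without untreated library 1 (adjusted p = 0.224). The resting sums held 0, 4 and 0 UMIs of Hist1h2ap and 5, 0 and 0 of Hist1h1d.

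Of the polyadenylated members, Hist3h2a again fell, with 11.0, 9.15 and 10.3 CPM in dividing macrophage-gated cells, against 26.5, 21.8 and 22.8 in resting cells, a log2 change of -1.38 ± 0.29 (SE), adjusted p = 0.00128. Without untreated library 1 or 2 its adjusted p was 0.0833 and 0.0609. Hist1h1c rose by 0.94 (adjusted p = 0.00547), a call that rested on doxorubicin library 2: without it the change was 0.46 with an adjusted p of 0.153. For Hist1h2bc the change was 0.47 (adjusted p = 0.12).

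Tumour-gated cells could be compared in 2 libraries, doxorubicin 2 and untreated 1. Of 13 members tested 3 rose in dividing cells and 0 fell, against 9.1% of 9541 genes called, 5.2% that rose and 3.9% that fell. Hist1h2ap had 20.4 and 148 CPM in dividing cells of these libraries, against 0 and 3.38 in resting cells (log2 change 5.43, adjusted p = 0.000127). Hist1h2ae (5.62) and Hist1h1b (4.505) were the others. The resting sums held 0 and 6 UMIs of Hist1h2ap, 0 and 3 of Hist1h2ae and 3 and 8 of Hist1h1b, so these folds are imprecise. In the pooled tumour table, 220 dividing and 304 resting tumour-gated cells gave a separate set of values with no replicates. There, 13 of 24 members with 50 or more UMIs were 1.5-fold or more higher in dividing cells and 2 were lower, against 15.7% and 23.9% of 10872 genes.

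In that pooled table Hist1h1b had 115 CPM in dividing cells, against 9.24 in resting cells, a ratio of 12.5 (95% interval 9.37 to 16.9). Hist1h1c was lower in dividing cells, with 47.2 CPM in dividing cells, against 109 in resting cells, a ratio of 0.433 (95% interval 0.376 to 0.498). Hist1h2bc had 94.6 CPM in dividing cells, against 96.5 in resting cells, a ratio of 0.981. The linker histones Hist1h1b and Hist1h1c thus differed in direction between these cells, while in T-gated cells both rose. These intervals are exact and cover counting error only.

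Cells that passed the neutrophil gate and the dividing threshold had no more S-phase histone RNA than resting ones. Their S-phase list was at 223 and 175 CPM in the doxorubicin libraries and 188 in untreated library 1, against 248, 205 and 253 in resting neutrophil-gated cells of the same libraries. Their median depth was 3863, 2561 and 2931 UMIs per cell. They are not described as dividing further on.

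Resting cells of the 4 gates differed in the histone RNA they held. Resting neutrophil-gated cells held the most histone RNA of the polyadenylated list, 549 and 363 CPM in the doxorubicin libraries and 536 and 279 in the untreated ones. Resting macrophage-gated cells had 429.8 and 315 in the doxorubicin libraries and 81.3 and 79.4 in the untreated ones. With 20 or more cells in doxorubicin 2 and untreated 1 only, resting tumour-gated cells had 301 and 153, and resting T-gated cells 107 and 42.5. The ranges of neutrophil- and macrophage-gated cells overlapped through the doxorubicin libraries, and in the untreated libraries the neutrophil-gated values were the higher.

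Of 11 members tested between gates with edgeR, 6 were higher and 1 lower in resting neutrophil-gated cells than in the mean of the other 3 gates, against 42.9% of 10256 genes called, 23.5% higher and 19.4% lower. Hist1h4i, an H4 gene of the S-phase list, had 103 and 114 CPM in the doxorubicin libraries, against 81.8 and 38.5 in the untreated libraries for resting neutrophil-gated cells. The other gates had between 5.07 and 17.2, so the gates did not overlap, and the log2 difference was 3.40 ± 0.38 (SE), adjusted p = 4.54e-18. The 38.5 CPM of untreated library 2 was 4 UMIs, and the T-gated values were 1 and 4 UMIs. Neutrophil-gated cells of untreated library 2 also held fibroblast markers, given further on. The difference was 2.83 for Hist1h2bc, 2.05 for Hist1h1c and 3.68 for Hist1h2be. Hist1h2be, an H2B gene, had 0 to 4.92 CPM in macrophage- and tumour-gated and 11.2 and 5.66 in T-gated cells (2 UMIs each). Hist1h4h was also called higher, but no fold is given, as both T-gated sums held 0 UMIs. It had 16.2 and 10.8 CPM in the doxorubicin and 57.2 and 0 in the untreated libraries for resting neutrophil-gated cells. Tumour-gated cells had 22.1 and 6.21 in doxorubicin 2 and untreated 1, so these gates overlapped. Hist2h2aa1 (1.57, adjusted p = 0.0487) was near the threshold. It lost its call without untreated library 1 or doxorubicin library 2, Hist1h4h without untreated library 1 (adjusted p = 0.0751), and the 1 lower member, Hist1h4d (-2.29), without doxorubicin library 2 (adjusted p = 0.181).

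**Figure D2:**
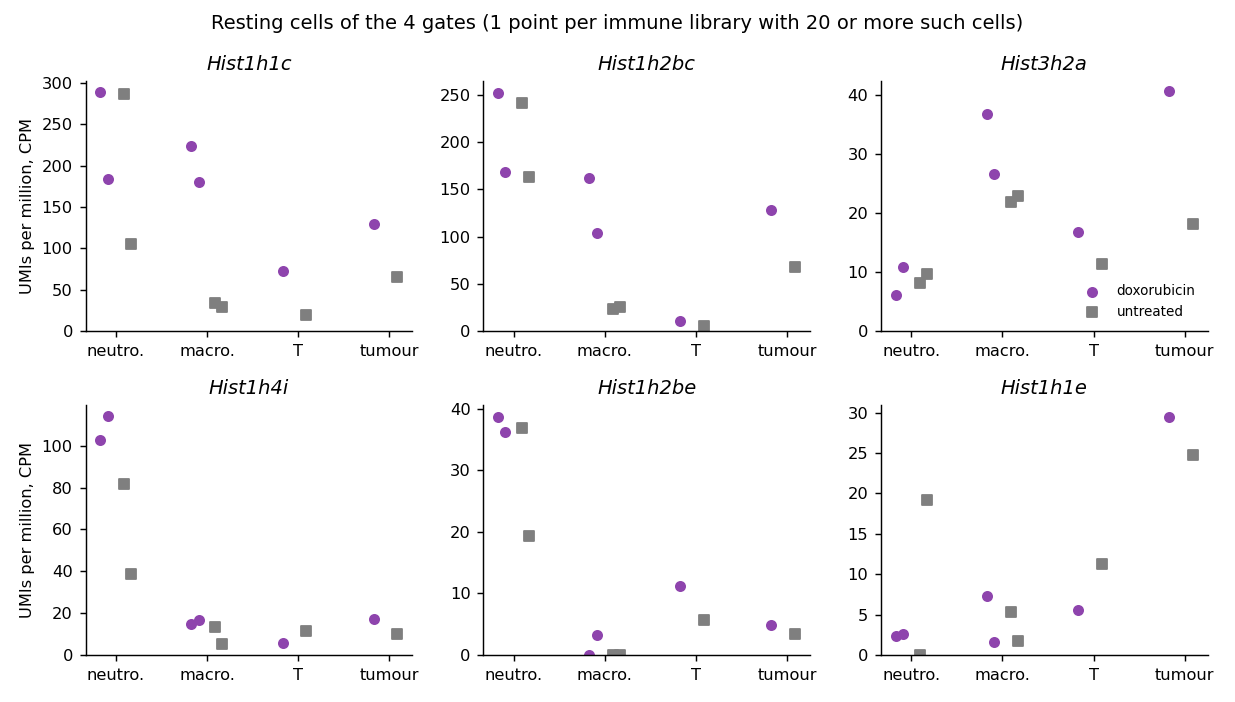
CPM (y axis, from 0) of 6 histone genes in resting cells of the neutrophil, macrophage, T and tumour gates, 1 point per immune library with 20 or more such cells, doxorubicin left of untreated. Hist1h4i and Hist1h2be stand highest in neutrophil-gated cells, and Hist1h1c and Hist1h2bc in macrophage-gated cells are high in the doxorubicin libraries only.

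Resting T-gated cells were lower in Hist1h2bc and Hist1h1c than the other gates. Of 11 members tested 0 were higher and 3 lower, against 20.3% of genes called, 10.2% higher and 10% lower. In doxorubicin 2 and untreated 1, the resting T-gated sums held only 2 UMIs each of Hist1h2bc, and 13 and 7 UMIs of Hist1h1c. Hist1h2bc had 11.2 and 5.66 CPM there, below every other gate. Its log2 difference was -3.85 ± 0.67 (SE), adjusted p = 1.74e-07. For Hist1h1c it was -1.86 ± 0.49 (SE), adjusted p = 0.00145, lost without untreated library 1 (adjusted p = 0.237). Hist3h2a, the other polyadenylated member tested, did not pass (-0.57, adjusted p = 0.64). Hist1h4h, the third member called lower, was at 0 UMIs in both T-gated sums, which rest on 83 cells, and no fold is given.

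Resting macrophage-gated cells had 0 members higher and 3 lower (20% and 8.18% of genes): Hist1h2be (-2.89), Hist4h4 (-2.06) and Hist1h1e (-1.57). Each lost its call without at least 1 library: Hist1h2be without untreated 1 (adjusted p = 0.0631), Hist4h4 without doxorubicin 2 (0.438), and Hist1h1e without untreated 1, untreated 2 or doxorubicin 2 (0.128 to 0.351). Resting tumour-gated cells had 4 higher and 0 lower (24.8% and 16.2% of genes). Hist1h1e, with 29.5 and 24.8 CPM in doxorubicin 2 and untreated 1, had a log2 difference of 2.39 ± 0.52 (SE), adjusted p = 2.37e-05. Hist1h4d (1.98), Hist1h4h and Hist1h2ac (1.67) were the others, and all 3 lost their call without untreated library 1. Hist1h4h also lost it without untreated library 2 (adjusted p = 0.0961) and without doxorubicin library 2. With DESeq2, Hist1h4h and Hist1h2ac did not pass (adjusted p = 0.187 and 0.091). No fold is given for Hist1h4h, as the T-gated sums held 0 UMIs, and its tumour- and neutrophil-gated values overlapped, as given above. The median of all genes was -0.08, 0.15, -0.13 and 0.13 in the neutrophil, macrophage, T and tumour contrasts, to be set beside these differences.

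Doxorubicin was followed by opposite movements of the lists in macrophage-gated cells. The polyadenylated list was at 375 and 341 CPM in the doxorubicin libraries, against 119.7 and 88.5 in the untreated libraries. The S-phase list was at 87.2 and 74.4 in the doxorubicin libraries, against 179 and 184 in the untreated libraries. The groups did not overlap for either list. Dividing cells made up 3.42% and 5.15% of macrophage-gated cells after doxorubicin, against 21.6% and 33.5% untreated.

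Of 30 members tested, 4 rose and 7 fell after doxorubicin, against 2.45% and 2.31% of 11353 genes. Hist1h1c had 141 and 199 CPM in the doxorubicin libraries, against 54.6 and 40.7 in the untreated libraries, a log2 change of 1.80 ± 0.24 (SE), adjusted p = 0.00786. Hist1h2bc had 195 and 111 CPM in the doxorubicin libraries, against 42.7 and 27.1 in the untreated libraries, a log2 change of 2.07 ± 0.34 (SE), adjusted p = 0.0211. In both genes the doxorubicin values lay above both untreated values, and Hist1h1c kept its call when any 1 library was left out, with adjusted p of 0.00747 to 0.045. Hist1h2bc lost it without untreated library 2 (adjusted p = 0.0619). The other polyadenylated members did not pass: Hist3h2a had 34.4 and 25.8 CPM in the doxorubicin libraries, against 18.9 and 18.2 in the untreated libraries (adjusted p = 0.18), and the adjusted p was 0.188 for Hist2h2be and 0.602 for Hist3h2ba.

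The 7 members that fell were S-phase genes. Hist1h1b had 0 and 1.16 CPM in the doxorubicin libraries, against 21.5 and 24.1 in the untreated libraries, a log2 change of -4.70 ± 0.48 (SE), adjusted p = 0.00228. Hist1h1e had 1.32 and 1.65 CPM in the doxorubicin libraries, against 12.9 and 13.3 in the untreated libraries, a log2 change of -3.10 ± 0.38 (SE), adjusted p = 0.0063. These linker histones fell in the sums of the same gate in which the linker histone Hist1h1c rose, and both kept their calls without any 1 library. Hist1h2ae had 3.30 and 4.46 CPM in the doxorubicin libraries, against 18.3 and 21.3 in the untreated libraries, a log2 change of -2.31 ± 0.30 (SE), adjusted p = 0.00736, and likewise kept its call. Hist1h3e, an H3 gene, had 0 UMIs in both doxorubicin libraries, against 78 and 33 UMIs in the untreated ones, at least 12.4-fold lower against a floor of 3 UMIs over the group (adjusted p = 0.0153). Hist1h2ap had 1.32 and 1.49 CPM in the doxorubicin libraries, against 17.6 and 44.9 in the untreated libraries (log2 change -4.46, adjusted p = 0.02), and Hist2h2ac fell by 2.86 (adjusted p = 0.0337).

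These calls were less firm. Hist1h2ap lost its call without doxorubicin library 1 or 2 (adjusted p of 0.255 and 0.309), Hist1h3e without doxorubicin 2, untreated 1 or untreated 2 (0.0503 to 0.101), and Hist2h2ac without any 1 library (0.0632 to 0.177). The 3 remaining calls, named after their values were seen, were Hist1h3c (-3.54, adjusted p = 0.0469), which fell, and the H3 genes Hist2h3c1 (2.76, adjusted p = 0.0469) and Hist2h3c2 (3.03, adjusted p = 0.0499), which rose. Hist2h3c1 and Hist2h3c2 are identical in the 90 bases before the stem-loop and had 56 and 45 UMIs in all, so they count as 1 uncertain observation.

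**Figure D3:**
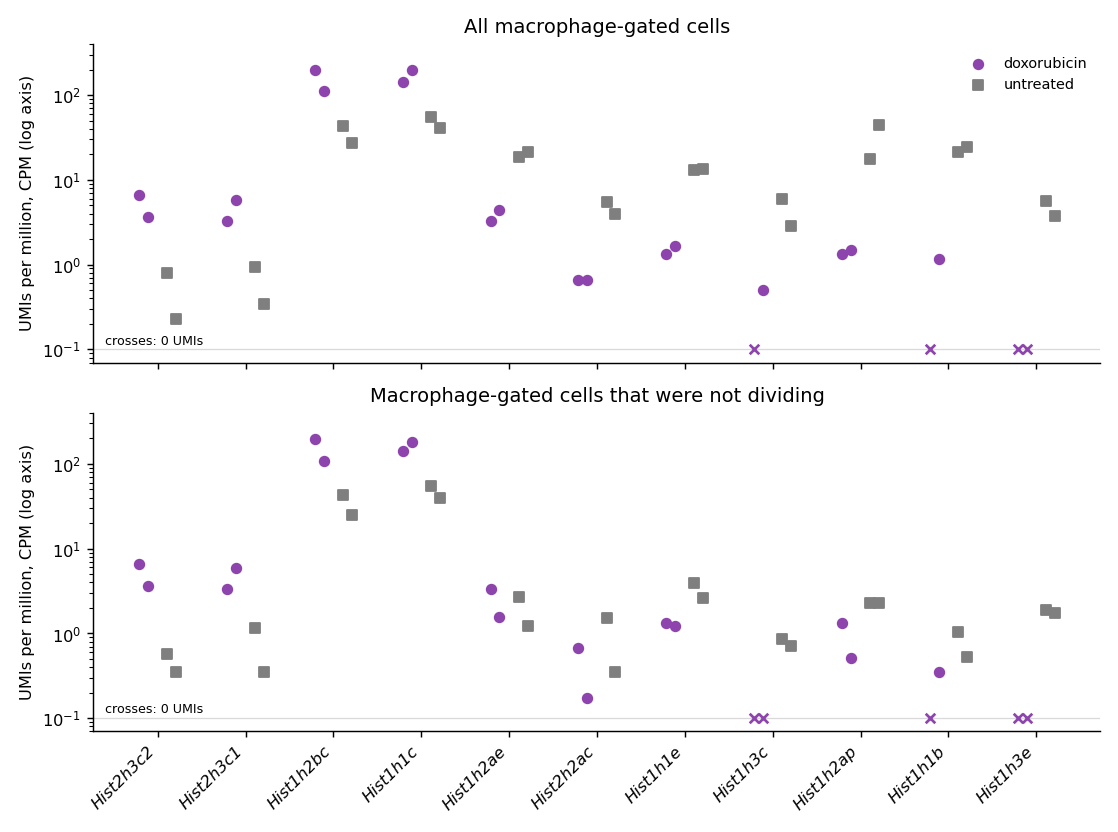
CPM (log axis) of the 11 histone members called between doxorubicin and untreated libraries in macrophage-gated cells, for all such cells and for those that were not dividing, 1 point per library, with crosses for 0 UMIs. Hist1h1c and Hist1h2bc stay above the untreated values in both panels, at 142 and 181 against 54.8 and 39.2 for Hist1h1c in cells that were not dividing.

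Leaving out dividing cells, an alternative added after these values were seen, kept the rise of Hist1h1c and Hist1h2bc and left none of the 7 falls called. Of 18 members tested in macrophage-gated cells that were not dividing, 3 rose and 0 fell (2.12% and 1.57% of 10868 genes), the third riser being Hist2h3c2. Hist1h1c had 142 and 181 CPM in the doxorubicin libraries, against 54.8 and 39.2 in the untreated libraries (adjusted p = 0.00681). Hist1h2bc had 196 and 108 CPM in the doxorubicin libraries, against 42.5 and 24.9 in the untreated libraries (adjusted p = 0.0357). Hist1h2ae, which fell over all cells, had 3.34 and 1.56 CPM in the doxorubicin libraries, against 2.68 and 1.24 in the untreated libraries, so the groups overlapped. Hist1h1e (-1.503, adjusted p = 0.218) and Hist1h2ap (-1.72, adjusted p = 0.258) did not pass. Hist1h3e also did not pass (adjusted p = 0.0691), but had 0 UMIs in both doxorubicin libraries, against 20 and 10 UMIs in the untreated libraries, at least 4.51-fold lower against the same floor. Hist1h1b, Hist1h3c and Hist2h2ac had too few UMIs to be tested. In resting cells alone 2 of 4 members tested rose (0.607% of 8070 genes), Hist1h1c by 2.59 and Hist1h2bc by 2.28.

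Markers of other cells moved with this comparison. Neutrophil markers summed to 7.10 and 4.205 UMIs per 10000 in macrophage-gated cells of the doxorubicin libraries, against 2.31 and 2.16 in the untreated ones. In neutrophil-gated cells they summed to 742 and 749.7 after doxorubicin and 513 and 722 untreated. Fibroblast markers were at 0.126 and 5.60 in macrophage-gated cells after doxorubicin, against 0.0342 and 0.0581 untreated, and the macrophages' own markers at 248 and 207, against 149 and 248. Neutrophil-gated cells made up 48.6% and 39.6% of the doxorubicin libraries, against 7.85% and 4.01% of the untreated ones. Their part in the macrophage values was not tested.

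**Figure D4:**
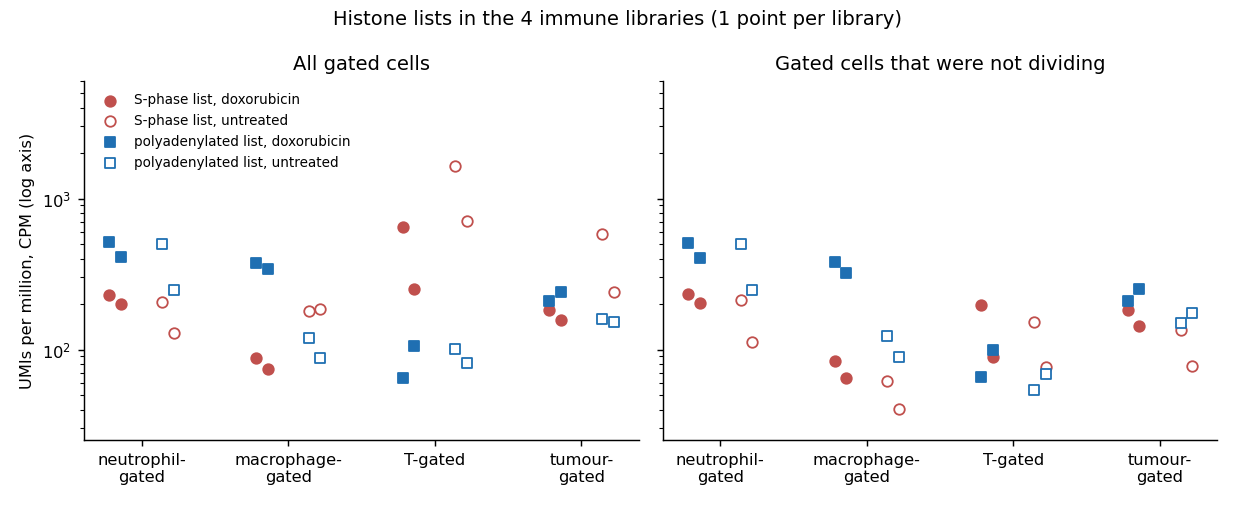
Summed CPM (log axis) of the S-phase and polyadenylated lists in the 4 gates of the immune libraries, 1 point per library, doxorubicin (filled) left of untreated (open), for all gated cells and for those that were not dividing. In macrophage-gated cells the polyadenylated list is above the S-phase list after doxorubicin (375 and 341 against 87.2 and 74.4) and below it untreated.

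Over whole immune libraries, in which a change in the mix of cells and a change within cells cannot be told apart, 1 of 59 members was called, Hist1h1c (5.44% of 16089 genes were called either way, 3.19% higher and 2.24% lower). Hist1h1c had 143 and 155 CPM in the doxorubicin libraries, against 57.8 and 54.5 in the untreated libraries, a log2 change of 1.28 ± 0.19 (SE), adjusted p = 0.0237. Without any 1 library its adjusted p was 0.0588 to 0.0795. Hist1h2bc had 155 and 115 CPM in the doxorubicin libraries, against 64.1 and 44.1 in the untreated libraries (log2 change 1.21, adjusted p = 0.0652). The median log2 change of the 59 members was -0.77, against -0.02 over all genes.

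In tumour-gated cells 1 of 29 members was called, against 7.82% of 11924 genes called either way and 3.98% that fell. Hist1h1b had 0.935 and 3.97 CPM in the doxorubicin libraries, against 92.2 and 56.7 in the untreated libraries, a log2 change of -4.65 ± 0.44 (SE), adjusted p = 0.006. Dividing cells made up 0% and 14.4% of tumour-gated cells after doxorubicin, against 45.3% and 46.0% untreated. Without doxorubicin library 1, whose tumour-gated cells carried the neutrophil markers given above, the change was -4.42 (adjusted p = 0.00389). Hist1h2ap had 18.7 and 3.97 CPM in the doxorubicin libraries, against 82.0 and 58.0 in the untreated libraries (adjusted p = 0.0637), and passed when any 1 library was left out (adjusted p of 5.35e-10 to 0.018). Hist1h1c (0.43, adjusted p = 0.269) and Hist1h2bc (0.46, adjusted p = 0.26) did not pass.

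In T-gated cells of the immune libraries 0 of 38 members were called by edgeR, as were 0% of 10014 genes. At an unadjusted p under 0.05 there were 10 members (7.63% of genes), and DESeq2 called 4, all lower after doxorubicin (0.17% of genes). Hist1h2bj had 3.84 and 5.75 CPM in the doxorubicin libraries, against 41.7 and 20.5 in the untreated libraries (adjusted p = 0.266). Hist1h1e had 24.98 and 14.0 CPM in the doxorubicin libraries, against 113 and 60.01 in the untreated libraries (adjusted p = 0.302). The groups did not overlap for either gene. Without untreated library 2, 12 of 44 members passed, against 0.407% of 10805 genes that fell, among them Hist1h1b (-2.42, adjusted p = 7.9e-06) and Hist1h2ae (-3.08, adjusted p = 2.55e-09), all lower after doxorubicin. In neutrophil-gated cells 0 of 11 members were called (0% of 8975 genes), 1 had an unadjusted p under 0.05 (7.48% of genes), and DESeq2 called 0 (1.09% of genes). Hist1h1c had 286 and 226 CPM in the doxorubicin libraries, against 266 and 106 in the untreated libraries, with overlapping groups. Fibroblast markers summed to 161 UMIs per 10000 in the 72 neutrophil-gated cells of untreated library 2 and to 0.063 to 17.7 in the other 3 libraries, and their part was not tested.

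Whether the doxorubicin effect in macrophage-gated cells differed from that in the other 3 gates was tested in 1 fit over the 4 gates. Of 47 members tested, 0 were called for any of the 4 gates by edgeR, against 0.0502% of 13946 genes for macrophage-gated cells, while 5 had an unadjusted p under 0.05 there (7.59% of genes). For Hist1h2bc the effect in macrophage-gated cells was 1.71 log2 units larger (adjusted p = 0.251), and for Hist1h1c 1.52 larger (adjusted p = 0.322). DESeq2 called these 2 members there (0.445% of genes), Hist1h2bc at 1.84 (adjusted p = 0.028) and Hist1h1c at 1.63 (adjusted p = 0.0161), so the call on this difference depends on the test.

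Of the histone supply in macrophage-gated cells, 0 of 14 mRNA factors changed after doxorubicin by edgeR. Of 17 chaperones 3 fell (2.31% of all genes, as above), Asf1b by 2.59, Chaf1b by 1.76 and Hat1 by 1.27 log2 units, and of 11 variants 3 fell, H2afx by 1.61, Cenpa by 1.40 and H2afz by 1.20. Each of these fell in the libraries in which fewer macrophage-gated cells were dividing.

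The 6 T cell libraries, 1 per group, allow no test, and genes 1.5-fold or more apart are counted with exact intervals that cover counting error only. Over all T-gated cells the S-phase list was at 1136, 1559, 1144, 667, 519.8 and 833 CPM in the anti-PD1, anti-CTLA4, both-antibody, IgG, 48 h and untreated libraries. Dividing cells made up 25.2, 30.5, 23.1, 22.5, 25.8 and 28.9% of T-gated cells in the same order. The share of dividing cells thus spanned a narrower range than the S-phase list did.

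The S-phase list was 1.70 times as high in the anti-PD1 library as in the IgG library (95% interval 1.67 to 1.73), 2.34 times in the anti-CTLA4 library (2.30 to 2.37) and 1.71 times in the both-antibody library (1.69 to 1.74). The polyadenylated list was 1.58, 1.61 and 1.51 times as high. All 3 comparisons share the IgG library, whose own value lies beneath each ratio. Within dividing cells alone the S-phase ratios were 1.495, 1.90 and 1.71, and within resting cells 1.59, 1.95 and 1.52, so the higher levels stood in both kinds of cell.

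In the anti-PD1 library 26 of 53 members with 50 or more UMIs were higher than in the IgG library and 1 was lower (9.53% and 6.88% of genes). This depended on the gate: over the whole libraries 8 of 60 members were higher and 1 lower, against 2286 and 1486 of 15110 genes. Hist1h3e, an H3 gene near-identical to Hist1h3f, had 37.3 CPM in the anti-PD1 library, against 12.9 in the IgG library, a ratio of 2.88 (95% interval 2.56 to 3.25). Hist1h1b had 241 CPM in the anti-PD1 library, against 114 in the IgG library, a ratio of 2.11 (95% interval 2.02 to 2.20). The other largest ratios were those of the linker histones Hist1h1d (2.54) and Hist1h1e (2.26), of Hist1h4i (2.36) and of Hist1h3g (2.09).

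In the anti-CTLA4 library 38 of 57 members were higher and 0 lower (9.74% and 3.18% of genes). Hist1h2an, an H2A gene, had 31.5 CPM in the anti-CTLA4 library, against 5.85 in the IgG library, a ratio of 5.39 (95% interval 4.60 to 6.34), the largest of any member against IgG. In dividing cells it had 19.6, 65.0 and 29.5 CPM in the anti-PD1, anti-CTLA4 and both-antibody libraries, against 14.6 in the IgG library. Hist1h2ai (3.31), Hist1h4k (3.27), Hist1h3e (3.22), Hist1h2br (3.01) and Hist1h3b (2.89) followed. In the both-antibody library 18 of 54 were higher and 1 lower (6.12% and 5.24% of genes), led by Hist1h2br (2.35), Hist1h4d (2.27), Hist1h2ab (2.23), Hist1h3e (2.23), Hist1h2ap (2.16) and Hist1h2ae (2.07).

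The polyadenylated Hist1h1c and Hist1h2bc were 1.44 to 1.67 and 1.63 to 1.90 times as high in the antibody libraries as in the IgG library. Hist1h1c had 80.9, 80.8 and 69.9 CPM in the anti-PD1, anti-CTLA4 and both-antibody libraries, against 48.5 in the IgG library. Hist3h2a stayed under 1.5-fold in each, at 10.2, 9.49 and 10.1, against 8.08. Without replicates, differences of this size cannot be told apart from those between libraries of 1 group.

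**Figure D5:**
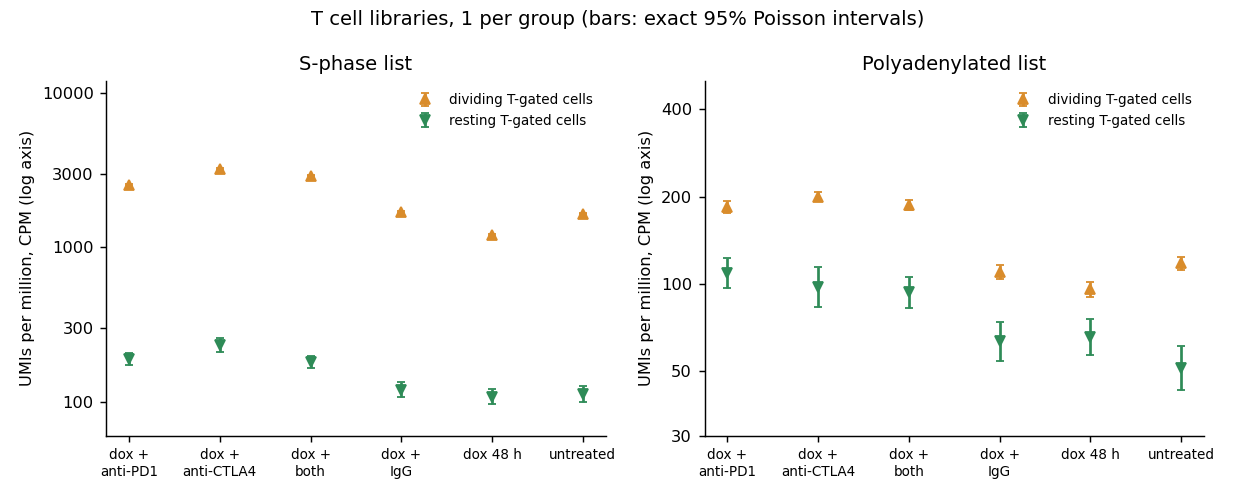
Summed CPM (log axes) of the S-phase and polyadenylated lists in dividing and resting T-gated cells of the 6 T cell libraries, 1 library per group, with exact 95% Poisson intervals. The S-phase list runs from 1203 to 3225 in dividing cells and from 108 to 232 in resting cells, and all 3 antibody libraries lie above the IgG library.

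The libraries before antibody treatment gave the reverse. In the 48 h doxorubicin library 1 of 55 members was higher than in the untreated library and 32 were lower (18.4% and 3.51% of genes), and the S-phase list was 0.624 times as high (95% interval 0.612 to 0.636). Hist1h3b, an H3 gene, had 2.12 CPM in the 48 h library, against 7.47 in the untreated library, a ratio of 0.284 (95% interval 0.215 to 0.372). Hist1h2ag (0.288), Hist1h2bk (0.297) and Hist1h3g (0.345) were also low, as were Hist1h3h and Hist1h4n with 12 and 22 UMIs in the 48 h library. Within dividing cells the S-phase ratio was 0.726, and within resting cells 0.963 (0.818 to 1.13), where the interval includes no difference.

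In the IgG library, harvested later after doxorubicin, 21 of 55 members were higher than in the 48 h library and 0 lower (3.13% and 11.1% of genes), with an S-phase ratio of 1.28 (1.26 to 1.31). Hist2h2bb, an H2B gene, had 12.8 CPM in the IgG library, against 6.26 in the 48 h library, a ratio of 2.05 (95% interval 1.73 to 2.43). Hist1h3h had 39 UMIs in the IgG library and 12 in the 48 h library, a ratio of 3.61 (95% interval 1.85 to 7.58), and Hist1h2af a ratio of 2.04. IgG treatment and the longer time after doxorubicin cannot be told apart here. G2/M-leaning cells were 213 of 624 dividing cells in the IgG library, against 327 of 1054 in the 48 h library and 302 of 751 in the untreated library.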

How the data were processed

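Single cells were captured with a Chromium Single Cell 3' kit, per the labels' protocols. The deposited matrices hold UMI counts per gene and cell, whole numbers that were not normalized, written by Cell Ranger 6.0.0 per the file headers on GRCm38 per the labels; the annotation used for counting is not given in the sources used here. The authors' pooled tumour table holds counts of the same kind. Gene names were attached to the sorted-cell matrices by the row order of the pooled table's genes. Mean profiles of the libraries against that table correlated at 0.954 to 0.984 in this order and at 0.354 or less in shifted orders. Members and lists were chosen with earlier results of these data known.

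A cell was kept at a minimum of 500 UMIs and 200 genes if mitochondrial UMIs stayed under 20%, no doublet caller was run, and counts were summed per library, gate and state where 20 or more cells allowed. Sums were tested with edgeR 4.0.16 (quasi-likelihood, TMM scaling, filterByExpr, two-sided, Benjamini-Hochberg over all genes tested) in R 4.3.3, and with DESeq2 1.42.0 as an alternative. Tables were handled with Python 3.11.15, numpy 2.4.6, pandas 2.3.3 and scipy 1.17.1. Single libraries were compared by ratios with exact Poisson intervals. The steps were tested on simulated data. Values per library are given for the polyadenylated list and for up to 8 members with the smallest p in a tested comparison, or up to 6 with the largest ratio and 50 or more UMIs between single libraries. Stem-loops were searched within 250 bases after the stop codon, allowing 3 mismatches, in the GRCm38 genome with GENCODE M21 transcripts, and promoters came from RefSeq. Reads that lie past a gene's annotated end would not be counted, which can lower its value. Reads of near-identical copies may not be assignable to 1 gene. In the tables of bulk samples, 12 columns match no label and were not used, and the ATAC-seq samples were not analysed here. The comparison between gates of the doxorubicin effect and the cells that were not dividing were added after seeing the data.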

Additional observations from a re-analysis of the deposited data

How the results depend on the processing

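Of the members' log2 differences recomputed with 1 library left out, 643 kept direction and side of the threshold, 36 lost and 22 gained a call, and 25 log2 differences changed sign without a call on either side; under the other settings the numbers were 661, 32, 71 and 23, and 2 further differences changed sign with a call on one side. The cause was not tested unless fewer genes, cells or samples entered by construction. Those 2 were of Hist1h4h over all gated cells in place of resting ones: 0.41 in T-gated and -0.0647 in tumour-gated cells. Calls over all genes also differed between settings, as in T-gated cells after doxorubicin, with 0% by edgeR and 0.419% by DESeq2. For most settings the share of all genes called is not given here. The counts of members in this section alone thus do not set them apart from other genes. Counts of members called after doxorubicin were as follows. Whole libraries gave 11 with DESeq2, 7 without a filter on low counts, and 0 to 3 with 1 library left out, against 1. Macrophage-gated cells gave 17 without the filter, 2 in resting cells, 3 in cells that were not dividing, and 5 to 6 with 1 library left out, against 11. T-gated cells gave 4 with DESeq2, 10 without the filter and 0 to 12 with 1 library left out, against 0. Tumour-gated cells gave 3, 17, and 2 to 10 under these settings and 0 in cells that were not dividing, against 1. Neutrophil-gated cells gave 0 under each. The doxorubicin effect between gates gave 0 with 1 library left out, and 2 with DESeq2 for macrophage-gated cells.

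With replicate numbers as a block, the calls after doxorubicin were 9 in whole libraries, 12 in macrophage-gated, 8 in T-gated and 3 in tumour-gated cells. The 8 were lower after doxorubicin (0.369% of genes were), among them Hist1h1e (adjusted p = 0.000263), Hist1h1b (0.000312) and Hist1h2ae (8.27e-05). Deviations of libraries with the same number correlated at 0.227 in whole libraries and 0.0915 to 0.298 in the gates over 2 pairs; the labels do not say that a number marks a pair, and 2 pairs cannot settle it.

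Between dividing and resting cells, T-gated cells gave 50 to 53 calls with 1 library left out, against 52. Macrophage-gated cells gave 9 with DESeq2, 9 with no library block, 24 against all cells that were not dividing, and 9 to 15 with 1 library left out, against 14. Tumour-gated cells gave 18 without the filter, 0 with no library block, 13 against all cells that were not dividing and 34 over all 10 libraries, against 3. S-leaning cells gave 51 to 55, against 53. Over all gated cells in place of resting ones, the gate differences numbered 29 (neutrophil, against 7), 12 (macrophage, 3), 34 (T, 3) and 7 (tumour, 4), and with 1 library left out 5 to 7, 1 to 3, 1 to 3 and 2 to 4. Scaling by library size gave 1 for T, and DESeq2 and no filter gave 2 each for tumour.

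At a fold of 2, the T cell libraries had 13 members past it for 48 h against untreated, 4 for IgG against 48 h, and 6, 22 and 8 for anti-PD1, anti-CTLA4 and both against IgG. In the same order, 802, 122, 438, 395 and 250 of all genes were higher and 112, 634, 234, 83 and 199 lower, of 11895, 11959, 11505, 11774 and 11668. In resting cells, where only 4, 4, 6, 5 and 5 members reach 50 UMIs, the counts at a fold of 1.5 were 1, 0, 5, 4 and 4. There, 886, 261, 628, 598 and 484 of all genes were higher and 246, 561, 486, 157 and 351 lower, of 6780, 6889, 6561, 6143 and 6674. Without gating, the counts at a fold of 1.5 were 36 of 58 for IgG against 48 h, 9 of 60 for anti-PD1 and 29 of 59 for both. Of all genes, 1292, 2286 and 995 were higher and 3116, 1486 and 3458 lower, of 15250, 15110 and 14195. Resting cells after doxorubicin in T- and tumour-gated cells, and tumour dividing cells with 1 of 2 libraries left out, were not run. Depth limits the rare members: a member needed only 20 UMIs over the 10 libraries, and resting sums rest on as few as 28 cells.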
